A study of Mus musculus with 6 samples.

Results

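The matrilins, cartilage oligomeric matrix protein (COMP) and the thrombospondins were followed in the counts of growth plate chondrocytes. The genes were matched by exact symbol, and all 9 (*Matn1*, *Matn2*, *Matn3*, *Matn4*, *Comp*, *Thbs1*, *Thbs2*, *Thbs3* and *Thbs4*) were present among the 23159 genes of the count table. All 9 also passed the filter on low counts, which left 13728 genes. RNA was sequenced from label-retaining chondrocytes (LRCs) and from their label-diluted counterparts (non-LRCs), with 1 library of each in 3 experiments. Both groups came from Col2-Q mice, which are homozygous for 4 alleles. These are the driver Peli2(Col2a1-tTA/Col2a1-tTA), a doxycycline-repressed transactivator, with its target Col1a1(TRE-H2B-GFP/TRE-H2B-GFP), a fluorescent histone, and the tamoxifen-dependent recombinase Col2a1-creER/Col2a1-creER with the reporter R26R(tdTomato/tdTomato). Mice of both groups were 49 days old, had received doxycycline from P21 to P49 to stop synthesis of that histone, and received tamoxifen at P46 and P47 to mark *Col2a1*-expressing cells with tdTomato. LRCs were tdTomato+ cells that had kept a high H2B-GFP signal, non-LRCs were tdTomato+ cells of mid to low signal, and each experiment pooled cells from several littermates, so no value belongs to 1 mouse. Both the transactivator and the Cre are driven by the *Col2a1* promoter. The study's methods name a CD45-negative gate beside H2B-GFP but not tdTomato, and describe weak H2B-GFP signal in bone cells without the transactivator. About 10000 LRCs and 50000 non-LRCs were sorted per library.

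Matrilins are adaptor proteins of the extracellular matrix that assemble into oligomers and join collagen fibrils to proteoglycans. *Matn1* and *Matn3* are largely restricted to cartilage, whereas *Matn2* and *Matn4* are also made in other connective tissues. Thrombospondins are calcium-binding secreted glycoproteins. *Thbs1* and *Thbs2* encode trimers with a region that inhibits angiogenesis, and *Comp*, *Thbs3* and *Thbs4* encode pentamers without it. In people, mutations of *MATN3* or *COMP* cause multiple epiphyseal dysplasia, a disorder of the growth plate.

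*Thbs4* was the 1 member called between LRCs and non-LRCs. Its level in CPM (counts scaled to a common library size) was 7.11-fold higher in LRCs by the fitted model, in the same direction in all 3 experiments. The most abundant members, *Matn3* and *Comp*, lay lower in LRCs in each experiment, and *Thbs1* and *Matn2* lay higher in each, but none of these 4 differences passed edgeR's test across all genes. *Thbs1*, *Thbs2*, *Matn1* and *Matn4* differed between experiments, with much lower levels in experiment 2 in both cell groups. *Matn1* was also lower in LRCs in each experiment, without a call by edgeR. *Thbs4* stood for change with cell group and *Thbs2* for change with experiment, so the 250 bases before the RefSeq start site of each are shown (GRCm38.p6, read 5′ to 3′ on the minus strand of both). Capitals mark a match to 1 of 4 motifs, and there was none in the window of *Thbs4*.
Thbs4, chr13:92794819-92795068: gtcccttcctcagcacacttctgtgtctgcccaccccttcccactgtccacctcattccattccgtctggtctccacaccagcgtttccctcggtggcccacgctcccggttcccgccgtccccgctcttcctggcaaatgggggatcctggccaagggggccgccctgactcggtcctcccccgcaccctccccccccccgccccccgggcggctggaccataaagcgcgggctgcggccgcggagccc
Thbs2, chr17:14694263-14694512: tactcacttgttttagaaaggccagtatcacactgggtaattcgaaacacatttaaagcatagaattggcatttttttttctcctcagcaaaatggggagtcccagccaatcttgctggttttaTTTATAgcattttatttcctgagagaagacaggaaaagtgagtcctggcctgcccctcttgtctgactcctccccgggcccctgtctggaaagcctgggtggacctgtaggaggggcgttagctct
The motifs searched on both strands were the SOX core motifs ACAAAG and ACAATG, the AP-1 motif TGAGTCA and the TATA box TATAAA. Of 32851 mouse promoters of the same length, 16.5%, 10.7%, 4.46% and 12.4% held these in turn. The capitals in the *Thbs2* window are TATAAA on the other strand, 126 bases before the start. GC content was 70.8% for *Thbs4* and 46.8% for *Thbs2*. RefSeq windows were at hand for 6 of the 9 members, and the other match among them was ACAAAG on the reverse strand of *Thbs3*, 88 bases before its start. The windows of *Matn4*, which changed more with experiment than *Thbs2*, held no match. No protein binding was measured, so a match or its lack is a description of the letters alone.

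Total counts ran from 18943789 to 129559872 per library, and the LRC library of experiment 2 was both the shallowest and the one with the most tested genes at 0 (1731, against 4 to 365 in the other 5). The members together took 0.877% of the counts there and 1.39% to 1.69% elsewhere. In that library 1 count was worth 0.0478 CPM, so every member was far above the limit set by depth, with a lowest member count of 129. Of 7 growth plate chondrocyte markers, 7 were detected in every library and none was called between the groups. At an unadjusted p below 0.05 by edgeR, 0 were higher in LRCs and 2 lower, beside 18.4% of all genes in either direction. In all 3 experiments 1 was higher and 5 were lower, beside 20.4% and 26.1% of all genes. The median log2 fold change, LRC over non-LRC, was -0.43 beside -0.10 for all genes tested. *Cdh5*, *Kdr* and *Emcn*, which define endothelial cells, had no count in any library, and the 6 endothelial markers summed to 0.442 to 1.75 CPM. The 10 leukocyte, erythroid and platelet markers summed to 14.3 to 27.0 CPM. The platelet gene *Pf4* was at 0 throughout, but *Cd68* and *Itga2b* of that list had 4.71 to 23.0 and 0.574 to 8.59 CPM. The globin gene *Hbb-bs* averaged 2.11 CPM in LRCs and 6.62 in non-LRCs without overlap (adjusted p = 0.139, edgeR). The 6 muscle markers summed to 4.79 to 13.6 CPM. Because these are bulk libraries, fewer cells of a type and less RNA per cell cannot be told apart.

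Levels of the 9 genes covered a wide range. On a per-length scale (RPKM, the CPM per kilobase of exon), *Matn3* was highest, with 1634 ± 486 in LRCs and 2806 ± 119 in non-LRCs (mean ± s.d., n = 3 each, as for all such values). *Comp* followed at 1175 ± 275 and 1517 ± 276 RPKM, and *Thbs1* at 567 ± 376 and 265 ± 192. *Thbs3* and *Matn2* formed a middle tier, at 73.3 ± 17.2 and 62.3 ± 13.1 RPKM in LRCs and 91.2 ± 12.9 and 36.2 ± 1.57 in non-LRCs. *Matn1*, *Matn4*, *Thbs4* and *Thbs2* were the low tier. In LRCs they measured 10.5 ± 6.57, 11.5 ± 8.83, 16.4 ± 3.27 and 4.15 ± 2.78 RPKM, and in non-LRCs 19.4 ± 11.3, 9.29 ± 6.37, 2.34 ± 0.667 and 3.30 ± 1.84. The order of *Matn3*, *Comp*, *Thbs1*, *Thbs3*, *Matn2* and *Matn1* held for each neighbouring pair in 6 of 6 libraries. Below it, *Matn1* was above *Matn4* in 5 libraries, and both were above *Thbs2* in 6 of 6. The place of *Thbs4* depended on the group, above *Matn4* and *Thbs2* in all 3 LRC libraries and above them in 1 of the 3 non-LRC libraries.

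**Figure D1:**
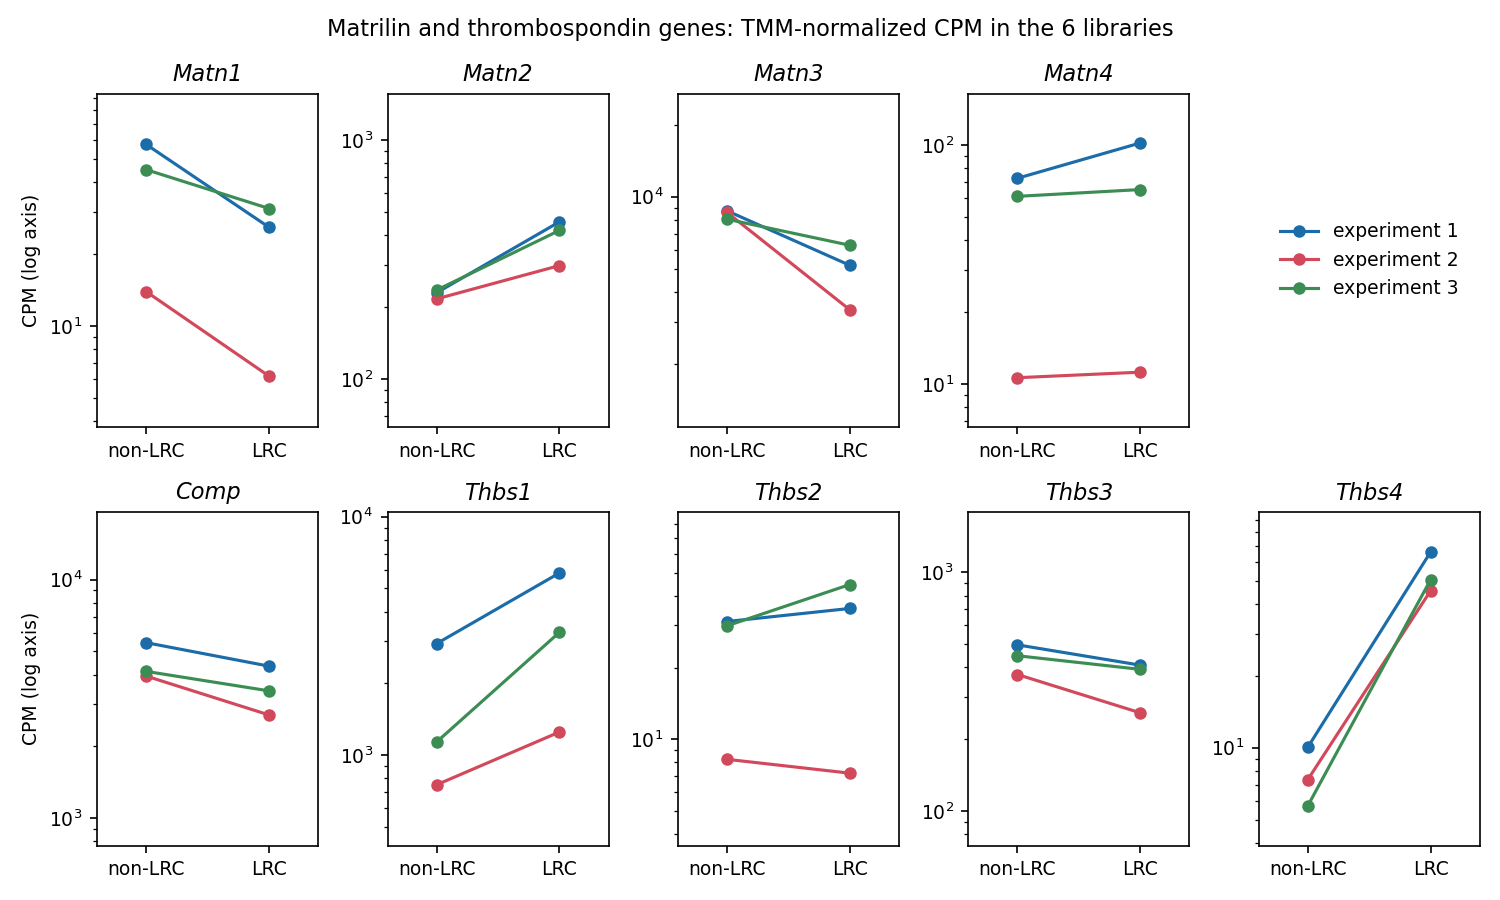
TMM-normalized CPM (log axis) for each of the 9 genes in the 6 libraries. Each point is 1 library, a line joins the non-LRC and LRC libraries of 1 experiment, and all panels cover the same fold range. *Thbs4* rises steeply along all 3 lines, from 5.71 to 10.1 CPM up to 45.5 to 66.1 CPM, whereas for *Matn1*, *Matn4* and *Thbs2* the line of experiment 2 lies well under the others at both ends.

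Among the matrilins, *Matn3*, whose product is a major oligomer of growth plate cartilage matrix, measured 5159, 3358 and 6261 CPM in LRCs of experiments 1, 2 and 3. The matching non-LRC libraries measured 8728, 8595 and 8052 CPM. All 3 LRC libraries lay under all 3 non-LRC libraries, and the LRC libraries were the more spread. The log2 fold change (LRC over non-LRC) was -0.83 ± 0.22 (s.e.), 1.77-fold higher in non-LRCs, with an adjusted p of 0.134 by edgeR's quasi-likelihood test. Experiment 2 had the widest difference, -1.36 on the log2 CPM scale, against -0.76 and -0.36 in experiments 1 and 3.

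*Matn1*, which encodes the protein first named cartilage matrix protein, measured 25.9, 6.17 and 31.1 CPM in LRCs and 57.6, 13.9 and 45.2 CPM in non-LRCs. Within every experiment the LRC library was lower, yet the groups overlapped because experiment 2 was low in both. Its log2 fold change was -0.95 ± 0.22 (adjusted p = 0.102, edgeR), and the 95% interval ran from -1.50 to -0.41. The ratio of *Matn1* to *Matn3* per length differed between groups by log2 values of -0.39, 0.18 and -0.18 in experiments 1 to 3, with no shared direction.

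*Matn2*, which is made in many connective tissues beside cartilage, went the other way. It measured 455, 298 and 418 CPM in LRCs and 229, 216 and 235 CPM in non-LRCs. The groups did not overlap, and the non-LRC libraries were tightly placed. The log2 fold change was 0.76 ± 0.16, or 1.69-fold, with an adjusted p of 0.0822 by edgeR. The per-length ratio of *Matn2* to *Matn3* was greater in the LRC library of every experiment (log2 differences of 1.75, 1.82 and 1.19). *Matn4*, the fourth matrilin, measured 102, 11.2 and 65.1 CPM in LRCs and 72.6, 10.6 and 61.0 CPM in non-LRCs. The libraries sorted by experiment rather than by group, and the log2 fold change was 0.22 ± 0.17 (95% interval -0.20 to 0.65, adjusted p = 0.546, edgeR).

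The pentameric thrombospondins divided as well. *Comp*, whose pentamers bind collagens II and IX, measured 4337, 2708 and 3417 CPM in LRCs and 5439, 3939.7 and 4123 CPM in non-LRCs. The LRC library was the lower of each experiment but the groups overlapped, and the log2 fold change was -0.38 ± 0.15 (95% interval -0.74 to -0.02, adjusted p = 0.255, edgeR). *Thbs3*, which is expressed in developing cartilage and bone, measured 409, 258 and 393 CPM in LRCs and 498, 374 and 448 CPM in non-LRCs. Its log2 fold change of -0.33 ± 0.14 (adjusted p = 0.289, edgeR) was close to that of *Comp*, with the LRC library again the lower in each experiment and with overlap between groups.

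*Thbs4*, best known from tendon, muscle and nervous tissue, had 7723, 952 and 2175 counts in LRCs and 1039, 281 and 284 in non-LRCs. These were 66.1, 45.5 and 50.6 CPM against 10.1, 7.36 and 5.71 CPM. Every LRC library was above every non-LRC library. The log2 fold change was 2.83 ± 0.22 (95% interval 2.30 to 3.36, adjusted p = 0.0151, edgeR), and the 3 experiments gave 2.71, 2.62 and 3.14 on the log2 CPM scale. It ranked 10 by p among the 13728 genes. Without the block for experiment the log2 fold change was 2.81 with an adjusted p of 0.0616 by edgeR, so the call was lost there. Over all alternatives the adjusted p ran from 7.2e-29 (DESeq2) to 0.0616 (edgeR without the block).

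The trimeric *Thbs1*, a secreted inhibitor of angiogenesis and activator of TGFβ, measured 5807, 1252 and 3276 CPM in LRCs and 2937, 753 and 1138 CPM in non-LRCs. The LRC library was higher within each experiment, but its level also ranged widely between experiments, and the groups overlapped. The log2 fold change was 1.08 ± 0.20, or 2.11-fold, with an adjusted p of 0.0657 by edgeR. *Thbs2*, its closest relative and likewise an inhibitor of angiogenesis, measured 35.4, 7.22 and 44.5 CPM in LRCs and 31.2, 8.25 and 29.9 CPM in non-LRCs. The groups overlapped, the experiments did not share a direction (0.18, -0.19 and 0.57 on the log2 CPM scale), and the adjusted p was 0.702 by edgeR.

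**Figure D2:**
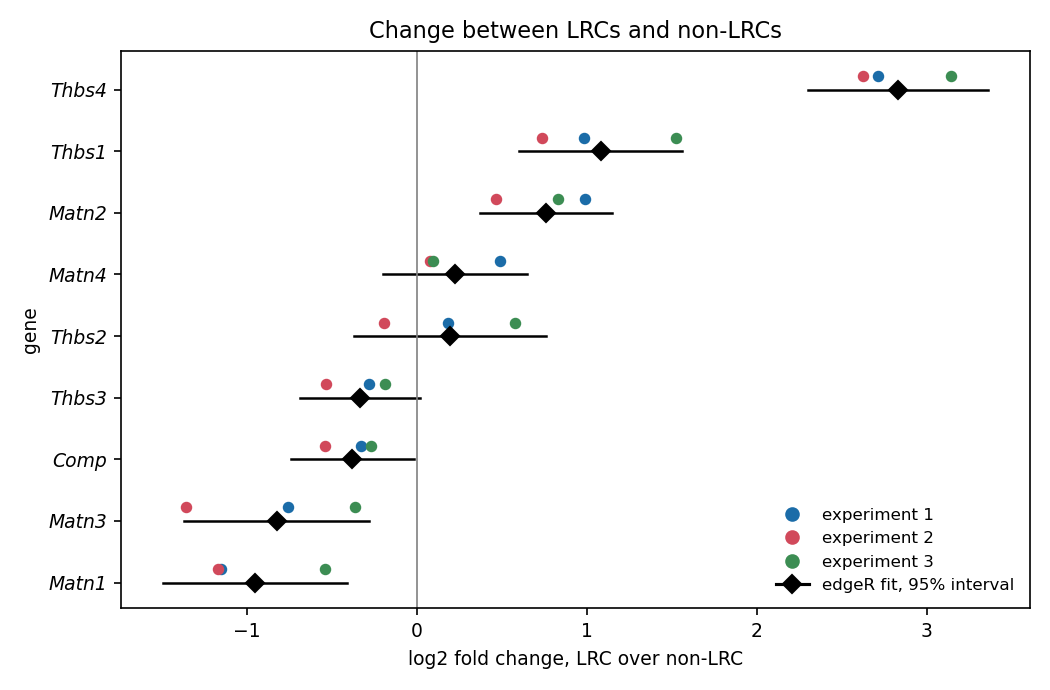
Log2 fold change of LRCs over non-LRCs for the 9 genes. Diamonds are the edgeR fit with its 95% interval, and coloured points are the differences in log2 CPM within each of the 3 experiments. *Thbs4* stands at 2.83 with an interval of 2.30 to 3.36, followed by *Thbs1* at 1.08 and *Matn2* at 0.76. *Matn1* (-0.95) and *Matn3* (-0.83) lie farthest to the left, and the interval of *Matn4*, *Thbs2* and *Thbs3* includes 0.

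In all, 1 of the 9 members was called at an adjusted p below 0.05, where 1.28% of all genes tested were. DESeq2 with the same block called 5 of 9 (*Matn1*, *Matn2*, *Matn3*, *Thbs1* and *Thbs4*), where it called 12.3% of all genes. At an unadjusted p below 0.05 edgeR counted 6 of 9, where 18.4% of all genes passed. Higher in LRCs in all 3 experiments were 4 of 9 (*Matn2*, *Matn4*, *Thbs1* and *Thbs4*), beside 20.4% of all genes, and lower in all 3 were 4 of 9 (*Matn1*, *Matn3*, *Comp* and *Thbs3*), beside 26.1%. The groups did not overlap for 3 of 9 (*Matn2*, *Matn3* and *Thbs4*), beside 18.7% of all genes. Without experiment 2, edgeR called 3 members, with adjusted p of 0.0159 for *Thbs1*, 0.0272 for *Matn2* and 0.00296 for *Thbs4*, beside 5.37% of the 14568 genes tested there.

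The makeup of each family is described per length, with no test. Summed matrilin RPKM was 1719 ± 510 in LRCs and 2871 ± 118 in non-LRCs, and *Matn3* made up 95.1% ± 0.781 of it in LRCs and 97.7% ± 0.661 in non-LRCs. *Matn2* was 3.72% ± 0.556 of matrilin RPKM in LRCs and 1.26% ± 0.0934 in non-LRCs, with no overlap. Summed RPKM of *Comp* and the thrombospondins was 1836 ± 671 in LRCs and 1879 ± 481 in non-LRCs. Within it *Comp* was 66.3% ± 9.70 in LRCs and 81.7% ± 5.66 in non-LRCs. *Thbs1* was 37.8%, 17.4% and 30.1% of this sum in the LRC libraries and 19.9%, 8.09% and 11.2% in the non-LRC libraries. *Thbs4* made up 0.795%, 1.17% and 0.858% in LRCs and 0.126%, 0.146% and 0.104% in non-LRCs. The log2 ratio of *Thbs1* to *Comp* was above that of the paired non-LRC library by 1.31, 1.27 and 1.80 in experiments 1 to 3, and the log2 ratio of *Thbs4* to *Comp* by 3.04, 3.17 and 3.42.

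**Figure D3:**
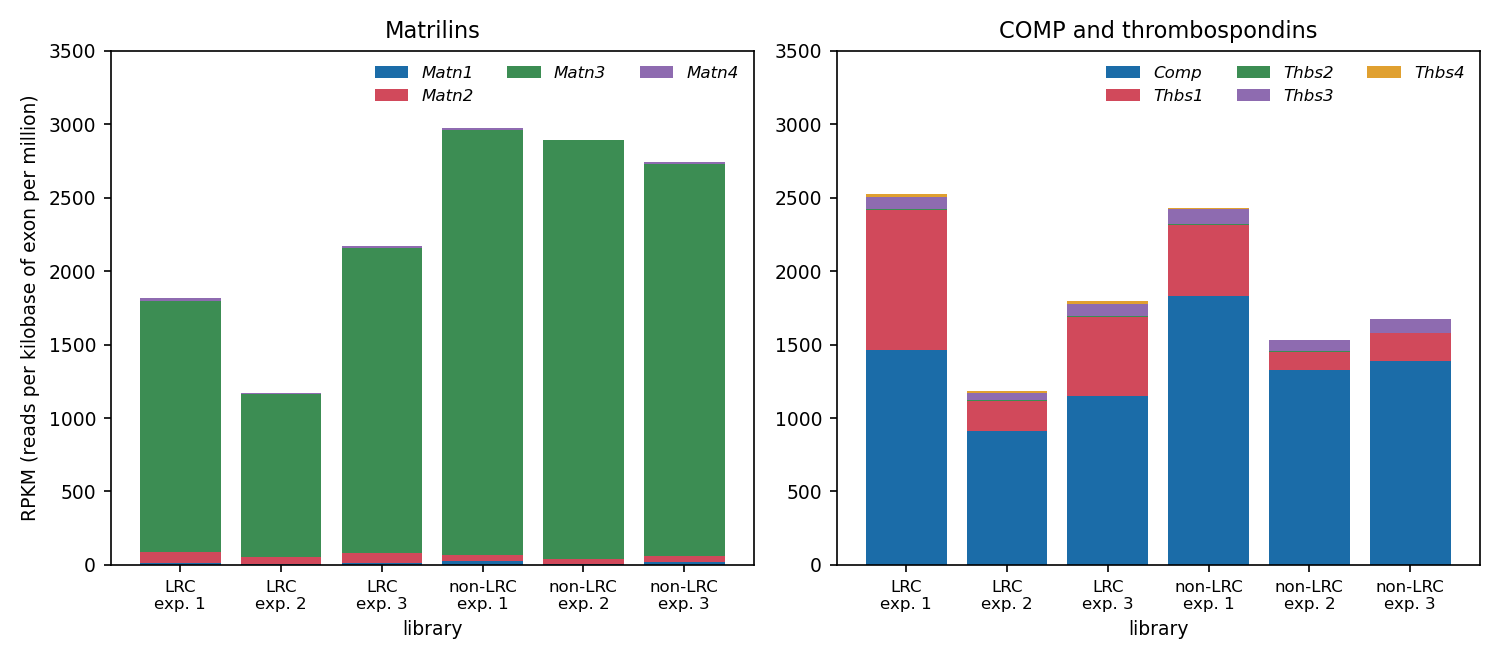
RPKM of the 4 matrilins (left) and of COMP and the 4 thrombospondins (right) stacked for each library. *Matn3* fills 94.2% or more of each matrilin bar, and the LRC bars are the shorter ones. On the right the *Thbs1* segment takes 17.4% to 37.8% of an LRC bar and 8.09% to 19.9% of a non-LRC bar.

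Several members differed between experiments more than between groups in CPM. *Matn4* measured 9.13-fold more CPM in experiment 1 than in experiment 2 in LRCs and 6.85-fold more in non-LRCs. For *Thbs2* the folds were 4.90 and 3.78, for *Thbs1* 4.64 and 3.90, and for *Matn1* 4.20 and 4.14. A contrast of experiment 2 against the mean of experiments 1 and 3 was added in the same edgeR model after these values had been seen. It called 4 of the 9 members lower in experiment 2, beside 1.49% of all genes tested (204 genes), while 169 genes were called higher. The log2 fold changes were -2.76 ± 0.21 for *Matn4*, -2.16 ± 0.27 for *Thbs2*, -2.04 ± 0.26 for *Matn1* and -1.54 ± 0.22 for *Thbs1*, each with an adjusted p of 0.0430. Without experiment 1 this count was 1, *Matn4* (adjusted p = 0.0308, edgeR), beside 0.268% of the genes tested there. Both libraries of experiment 2 came from the same experiment. The standard errors and p values of this contrast therefore do not measure the spread between experiments.

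The other 5 members were nearer to level across experiments. *Thbs3* differed by -0.48 on the log2 scale, *Comp* by -0.38, *Matn3* by -0.35, *Matn2* by -0.32 and *Thbs4* by -0.20, with adjusted p from 0.120 to 0.591 by edgeR. In both groups, 7 of the 9 were lowest in experiment 2, all but *Matn3* and *Thbs4*, beside 26% of all genes. The shallower depth and the larger number of genes at 0 in the LRC library of experiment 2 moved with this contrast. The non-LRC library of experiment 2, with 37369969 counts, was also the shallowest of its group, and the part of depth in the contrast was not tested. What set the experiments apart other than their number is not given by the labels.

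**Figure D4:**
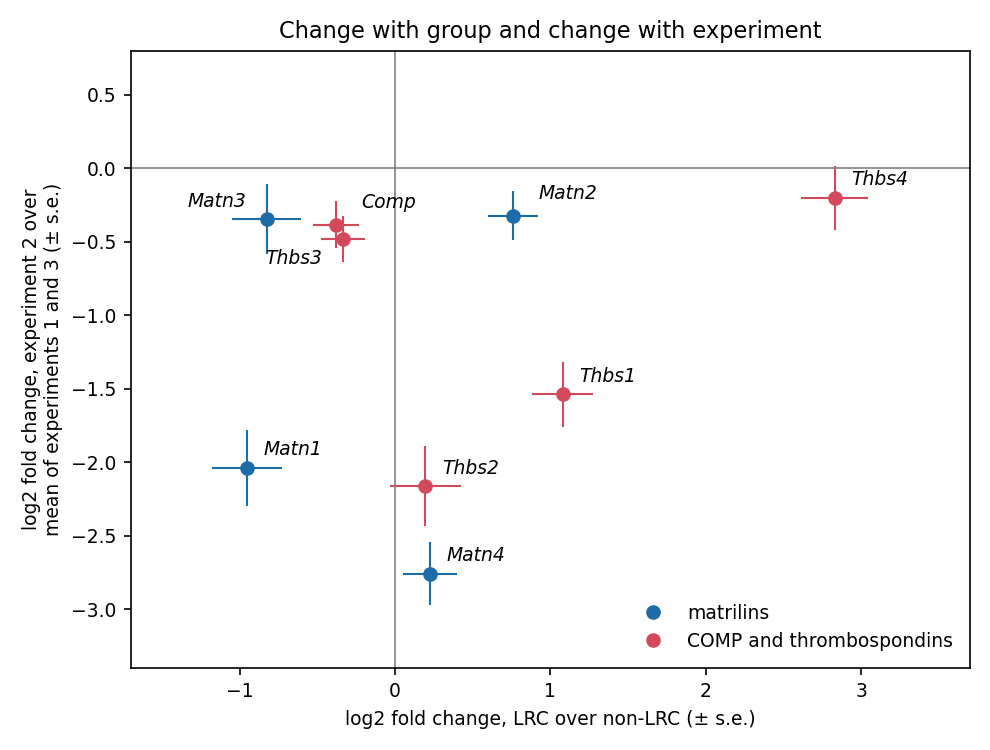
Change with cell group (horizontal, log2 fold change of LRCs over non-LRCs) against change with experiment (vertical, log2 fold change of experiment 2 over the mean of experiments 1 and 3), with standard errors from the edgeR fits. The vertical errors do not measure the spread between experiments. *Thbs4* lies at 2.83 and -0.20, and *Matn4* at 0.22 and -2.76. *Thbs1* (1.08 and -1.54) and *Matn1* (-0.95 and -2.04) are displaced along both axes.

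Over the 6 libraries each member had genes with near-identical profiles of log2 CPM, among 7823 with a mean of at least 10 CPM. These r values are descriptions, since the libraries share experiment and depth. Closest to *Thbs4* were *Gsn* (r = 0.994), which encodes the actin-severing protein gelsolin, and *Scara3* (r = 0.994), a scavenger receptor gene. *Gsn* had a log2 fold change of 1.89 and *Scara3* of 2.34, with adjusted p of 0.0151 and 0.0176 by edgeR. *Thbs1* went with *Adam22* (r = 0.999) and *Creb3l2* (r = 0.997), and *Thbs2* with *Inpp4a* (r = 0.997) and *Micall1* (r = 0.995). *Matn3* went with *1110067D22Rik* and *Dhcr7* (both r = 0.996), *Matn2* with *Ogt* (r = 0.991) and *Gpm6b* (r = 0.986), *Matn4* with *Eml4* (r = 0.997) and *Ankrd28* (r = 0.996), and *Matn1* with *Sugp2* (r = 0.995) and *Ttc7b* (r = 0.994). *Thbs3* went with *Slc30a4* and *Gfpt1* (both r = 0.998), and *Comp* with *Cep350* and *Nup188* (both r = 0.978). Among the members themselves the 4 highest values were 0.968 for *Matn4* with *Thbs2*, 0.963 for *Matn1* with *Thbs3*, 0.92 for *Comp* with *Thbs3* and 0.915 for *Matn2* with *Thbs4*.

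Genes of the matrix into which these proteins assemble were examined as a list of 15 collagens, proteoglycans and partners. None was called between the groups, where edgeR called 1.28% of all genes. At an unadjusted p below 0.05, 3 were higher in LRCs and 3 lower, beside 18.4% of all genes in either direction. The list median was -0.18 beside -0.10 for all genes tested. *Fn1*, fibronectin, averaged 19322 CPM in LRCs and 8681 in non-LRCs (log2 fold change 1.14, adjusted p = 0.0658, edgeR). *Dcn*, the small proteoglycan decorin, averaged 939 and 487 CPM without overlap (0.97, adjusted p = 0.0540). *Hapln1*, which links aggrecan to hyaluronan, was at -0.74 (adjusted p = 0.114). DESeq2 called 4 of this list, beside 12.3% of all genes.

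Of 13 receptors and partners of thrombospondins, none was called by edgeR, beside 1.28% of all genes. At an unadjusted p below 0.05, 4 were higher and 2 lower, beside 18.4% of all genes in either direction, and the median was -0.15. DESeq2 called 7 of the 13, beside 12.3% of all genes. *Vldlr*, a lipoprotein receptor that binds thrombospondins, averaged 24.2 and 54.3 CPM in LRCs and non-LRCs (log2 fold change -1.13, adjusted p = 0.0726, edgeR). *Sirpa*, the ligand of CD47, was at 1.03 (adjusted p = 0.106) and *Cacna2d1*, a calcium channel subunit that binds thrombospondins, at -0.86 (adjusted p = 0.262). *Cd36*, the scavenger receptor for THBS1, had 50, 0 and 179 counts in LRCs and 364, 34 and 338 in non-LRCs (adjusted p = 0.284), and *Cd47* was at 0.10 (adjusted p = 0.823). The last pair falls outside the rule for named genes and was chosen after the values were seen.

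Of 8 proteases that cut COMP, matrilins or thrombospondins, none was called by edgeR, beside 1.28% of all genes. At an unadjusted p below 0.05, 2 were higher and 2 lower, beside 18.4% of all genes in either direction, and the median was -0.10. *Adamts5*, an aggrecanase, averaged 10.3 CPM in LRCs and 55.8 in non-LRCs without overlap (log2 fold change -2.63, adjusted p = 0.138, edgeR). *Adamts1* was at -0.94 (adjusted p = 0.0695) and *Mmp13*, a collagenase, at -0.57 (adjusted p = 0.612). DESeq2 called 3 of the 8, beside 12.3% of all genes.

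**Figure D5:**
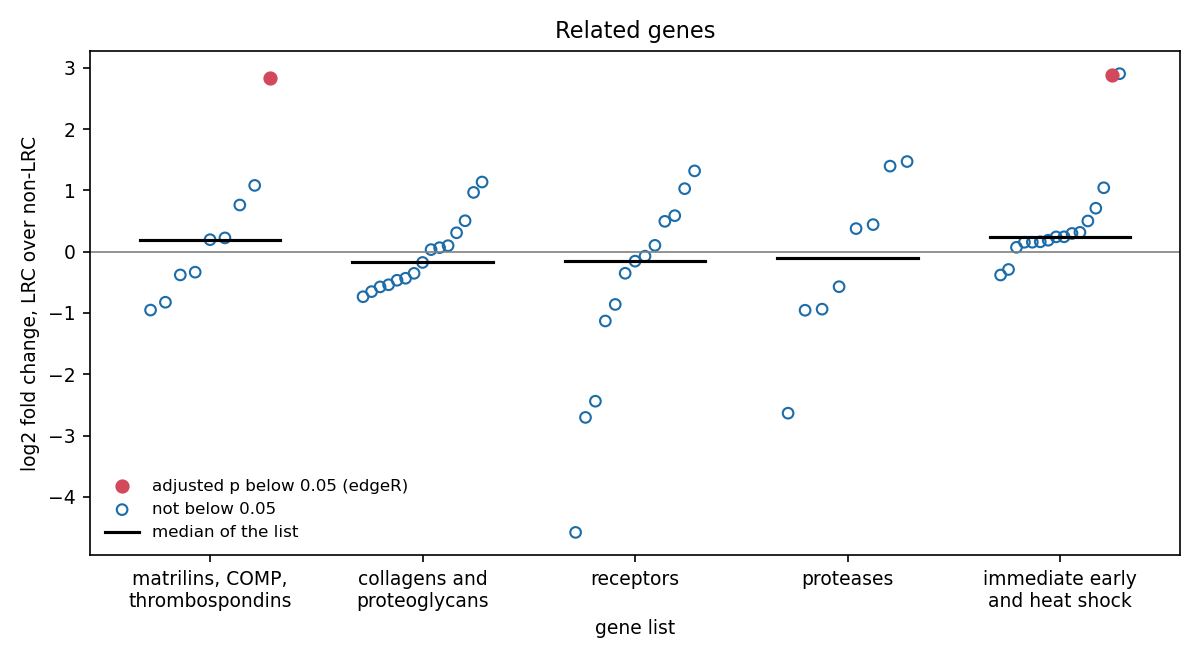
Log2 fold change of LRCs over non-LRCs for every tested gene of 5 lists, with the list median as a bar and filled points for an adjusted p below 0.05 by edgeR. The filled points are *Thbs4* at 2.83 and the heat shock gene *Hspa1a* at 2.89. None of the collagens and proteoglycans, receptors or proteases is filled.

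Values of other marker lists moved with the group and are given beside the results on *Thbs4* and *Thbs1*. Over all genes, edgeR called 1.28%, and 18.4% had an unadjusted p below 0.05. In all 3 experiments 20.4% of all genes were higher in LRCs and 26.1% lower. Of 11 markers of superficial articular and synovial cells, 5 rose in LRCs (*Prg4*, *Abi3bp*, *Cilp*, *Cilp2* and *Clu*, with adjusted p from 0.0103 to 0.0360 by edgeR) and none fell. The summed level of the 11 was 2236 to 4418 CPM in LRCs and 652 to 906 CPM in non-LRCs. Of 8 tested markers of tendon and ligament cells 1 rose, *Col1a1*, at a log2 fold change of 2.38 (adjusted p = 0.0151, edgeR). The sum of this list was 8484 to 13905 CPM in LRCs and 6644 to 10031 CPM in non-LRCs. *Fmod*, which is also in the collagen and proteoglycan list, was 6377 to 9480 CPM of it in LRCs and 4799 to 7122 CPM in non-LRCs. Of the 8 tendon and ligament markers, 4 were higher and 0 lower in LRCs at an unadjusted p below 0.05. The 4 were *Tnc*, *Col1a1*, *Fmod* and *Egr1*, which is also in the immediate early and heat shock list. In all 3 experiments 5 of the 8 were higher, and their median log2 fold change was 0.71. Of the defining tendon genes, *Scx* measured 8.04 CPM in LRCs and 9.75 in non-LRCs (adjusted p = 0.765). *Tnmd* measured 2.22, 14.5 and 1.75 CPM in LRCs and 0.697, 2.09 and 1.59 CPM in non-LRCs, higher in the LRC library of each experiment (log2 fold change 1.54, adjusted p = 0.320, edgeR). *Mkx* averaged 2.28 CPM in LRCs and 2.04 in non-LRCs, with no shared direction between experiments (adjusted p = 0.688, edgeR). *Kera* was too low to be tested. Of 7 hypertrophic chondrocyte markers 2 fell in LRCs, *Mef2c* (-2.35) and *Panx3* (-4.01), both with an adjusted p of 0.0176, and 5 of 7 were lower both at an unadjusted p below 0.05 and in all 3 experiments, with a median of -2.35. Their summed level was 799, 1943 and 1610.4 CPM in LRCs and 1029, 2375 and 2737 CPM in non-LRCs, lower in the LRC library of each experiment, and *Spp1* (log2 fold change -0.0035) was 398 to 1728 CPM of it. Of 7 osteoblast markers 1 rose, again *Col1a1*, with summed levels of 131 to 299 and 133 to 428 CPM. The median log2 fold change of these 7 was -0.89. At an unadjusted p below 0.05 by edgeR, 1 of them had a positive fold change and 3 a negative one. For 3 of the 7, every experiment had its LRC library below the paired non-LRC library, and for 2 above it. By in situ hybridization, the paper found *Prg4* mRNA in resting zone chondrocytes too, far more weakly than at the articular surface. Its authors also report that growth plate chondrocytes were almost all of the tdTomato+ cells freed from dissected epiphyses. A list name alone does not show that cells of that type were present. Whether such cells had a part in the *Thbs4* difference was not tested.

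*Thbs1* is also induced by serum and other stimuli in many cells. Of 16 immediate early and heat shock genes 1 rose in LRCs, *Hspa1a*, an inducible heat shock chaperone with 1246, 1422 and 5007 counts in LRCs and 268, 236 and 656 in non-LRCs (log2 fold change 2.89, adjusted p = 0.0275, edgeR). None was called lower, where edgeR called 1.28% of all genes in either direction. The list median was 0.24 beside -0.10 for all genes tested. At an unadjusted p below 0.05 by edgeR, 5 were higher and 0 lower, beside 18.4% of all genes in either direction. In all 3 experiments 8 were higher and 1 was lower, beside 20.4% and 26.1% of all genes. *Hspa1b* was at 2.90 (adjusted p = 0.0619), *Fos* at 1.04 (adjusted p = 0.175) and *Egr1* at 0.71 (adjusted p = 0.0731). The summed level was 4151 to 5530.4 CPM in LRCs and 2930.2 to 4580.3 CPM in non-LRCs, higher in the LRC library of each experiment. Whether serum or other stimuli acted on these cells, or on the *Thbs1* level, was not tested.

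Read sharing could touch the members only in part. By GENCODE models on GRCm38, exons of *Thbs3* overlapped *Mtx1* on the opposite strand over 318 bases, 6.59% of its exon length, and *Thbs1* overlapped *Gm29233*, *Matn4* overlapped *Rbpjl* and *Matn2* overlapped *9430069I07Rik* over 3.42%, 2.88% and 1.12%. The strand setting of the counting was not given in the sources used here, so reads of these stretches could not be assigned. *Thbs4* (chr13:92751590-92794818), *Thbs2* (chr17:14665500-14694235), *Comp* (chr8:70373558-70382066), *Matn3* (chr12:8947929-8972028) and *Matn1* (chr4:130944385-130955475) had no exon overlap with another gene, and no stretch of 50 bases in them was shared with another gene. Of the 50-base stretches of *Thbs3*, *Thbs1* and *Matn4*, 3.54%, 1.89% and 1.44% were shared with another gene. For *Matn2* the share was 1.2%, spread over 103 other genes.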

How the data were processed

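RNA was measured in 6 libraries, 3 of LRCs and 3 of non-LRCs, grouped by the labels. Per the submitters' processing notes, reads were aligned to mm10 (GRCm38) with TopHat2 2.0.13 and Bowtie2 2.2.1 and counted with HTSeq, and the authors' methods state that non-ambiguously mapped reads alone were counted, so reads of near-identical copies are lost. The annotation and strand setting are not given in the sources used here. The deposited raw counts per gene were used, and the 2 deposited tables of normalized and rlog values were not used.

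Genes were filtered with filterByExpr (minimum count 10, minimum total 15) and fitted in R 4.3.3 with edgeR 4.0.16 (TMM, quasi-likelihood test, prior count 0.125, block for experiment, Benjamini-Hochberg adjustment over all 13728 genes, called at 0.05). The intervals give the uncertainty of the log2 fold change in this fit with the block, and do not describe the spread between libraries. CPM values used TMM library sizes, with a prior count of 2 on the log2 scale. RPKM used the union exon length of GENCODE vM21, in which the current symbol found 20778 genes, older symbols found 1902 more, and 479 were missing. The number shared by an LRC and a non-LRC library pairs them as 1 experiment, since the study's methods describe a paired model with a mouse-of-origin term. To check this, deviations from group means correlated across genes at r = 0.197, 0.288 and 0.336 within experiments 1, 2 and 3. No library was a copy of another (chi-square per gene of 192 to 877).

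Alternatives were no block, DESeq2 1.42.0, DESeq2 size factors in edgeR, no filter, 10 counts in every library, limma-voom (limma 3.58.1), a prior count of 2, another transcript length, and each experiment left out. The contrast between experiments and its alternatives were added after the values were seen. The fits were tested on simulated data. Promoter sequences came from RefSeq (GRCm38.p6).

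The members and lists were chosen with earlier results of these data known. Named genes were all 9 members, the called genes of the 4 lists with up to 3 further genes of largest change and a mean of at least 10 CPM, the 2 genes most correlated with each member, and defining markers. No protein sequence was used here.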

Additional observations from a re-analysis of the deposited data

How the results depend on the processing

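The log2 fold changes of the 9 members kept their direction in all 90 alternatives, with 76 on the same side of the threshold, 13 newly past it and 1 no longer past it (*Thbs4* without the block). Without the block that pairs libraries by experiment, edgeR called 1 gene of all, 0 members and 0 immediate early and heat shock genes, against 176, 1 and 1 with it. DESeq2 called 1692 genes and 5 members, limma-voom 1361 and 5, and a minimum of 10 counts in every library 751 and 4. For the 4 lists in turn (collagens and proteoglycans, receptors, proteases, immediate early and heat shock genes), against 0, 0, 0 and 1 calls, DESeq2 gave 4, 7, 3 and 4, limma-voom 6, 4, 2 and 4, and the minimum of 10 counts 2, 1, 2 and 3. DESeq2 size factors in edgeR gave 1 call among the collagens and proteoglycans, and no filter gave 1 there and 2 among the immediate early and heat shock genes. Leaving out each experiment gave 35 (without experiment 1) to 782 (without experiment 2) genes, 1 to 3 members, and 0 to 2, 0 to 1, 0 to 2 and 2 to 3 list genes. The count of members lower in experiment 2 was 4 under every added alternative except without experiment 1, where it was 1, and 1 to 4 over the experiments left out. Without experiment 1 the change of *Thbs4* in that contrast, not called in either fit, turned from -0.20 to 0.079 (adjusted p = 0.929, edgeR), and its range over the experiments left out was -0.50 to 0.079. Taking the longest transcript as the length moved the RPKM of *Matn2* to 109 in LRCs and 63.4 in non-LRCs, of *Comp* to 1863 and of *Thbs3* to 109 in non-LRCs, with the ranks kept. The cause of these shifts was not tested, and where an experiment was left out there were also fewer libraries. With 3 libraries a group, the 95% intervals of *Matn4* (-0.20 to 0.65) and *Thbs2* (-0.37 to 0.76) allow changes of that size.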
